A study of Mus musculus with 9 samples.

Results

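The genes described here are Trp53, which encodes the transcription factor p53, and 8 of its direct targets, Mdm2, Ccng1, Trp53inp1, Sesn1, Zmat3, Aen, Perp and Phlda3. They were taken by name, as 9 of the 38293 genes in a table of RNA-seq read counts from the mouse embryonic stem cell line E14 (strain 129/Ola). The line was grown in 3 culture states with 3 biological replicates each. The mESC-2i state was kept in N2B27 medium with the MEK inhibitor PD0325901 (1 µM), the GSK3 inhibitor CHIR99021 (3 µM) and leukaemia inhibitory factor (LIF, 10 ng/mL). The mESC-ser state was kept in DMEM with 15% foetal bovine serum and the same LIF concentration. Epiblast-like cells (EpiLC) were derived from the naive state on fibronectin in N2B27 with activin A (20 ng/mL), bFGF (12 ng/mL) and 1% KSR, and the length of that culture is not given in the sources used here. All libraries come from 1 cell line, without a damaging agent or a p53-deficient control. The values describe the cultures as grown, in which stress was not measured, and do not measure p53 activity.

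p53 is held at low protein levels in unstressed cells because Mdm2, an E3 ubiquitin ligase, marks it for degradation, and Mdm4 (MdmX), a relative of Mdm2, restrains its activity. After DNA damage or other stress the protein is stabilised and binds its target genes, whose products arrest the cell cycle, repair DNA, restrain growth signalling or promote apoptosis. Mdm2 is itself a p53 target, which closes a negative feedback loop. Because p53 is controlled largely at the level of its protein, the RNA level of Trp53 is not a readout of its activity.

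p53 binds DNA as a tetramer on a pair of decamers that match the p53 consensus. RefSeq promoter windows (GRCm38.p6, from 250 bases before to 50 bases after an annotated start) covered 6 of the 9 genes in 8 windows, and both strands were searched for the p53 decamer motif, which reads the same on either strand. At least 1 decamer lay in a window of 5 genes (Trp53, Mdm2, Ccng1, Sesn1 and Aen) and none was found in that of Phlda3. Over all 27025 genes with a window, 9.55% held a decamer and 1.24% held a pair of decamers with a spacer of at most 13 bases and at most 1 mismatch. Among the 6 genes with a window, only Ccng1 held such a pair, and Trp53inp1, Zmat3 and Perp could not be searched. The sequences are shown because they are the letters in these starts that p53 could read. Capitals mark the decamer or, for Ccng1 and for Cdkn1a (a target outside the 9 genes, shown for comparison), each decamer of its pairs.
Trp53: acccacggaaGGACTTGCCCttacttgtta
Mdm2: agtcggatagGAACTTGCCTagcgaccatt
Ccng1: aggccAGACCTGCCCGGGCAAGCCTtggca
Sesn1: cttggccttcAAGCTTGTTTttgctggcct
Aen: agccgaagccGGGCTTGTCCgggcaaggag
Cdkn1a: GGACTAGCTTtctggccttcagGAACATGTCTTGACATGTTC
The capitals of Trp53 lie at chr11:69580284-69580293 on the plus strand, those of Mdm2 at chr10:117710935-117710944 on the minus strand and those of Ccng1 at chr11:40755462-40755481 on the minus strand, all 3 outside annotated genes. The Sesn1 match (chr10:41887266-41887275, plus strand) is in an intron of Sesn1, ahead of a second annotated start, and the Aen match (chr7:78895937-78895946, plus strand) is in an untranslated exon of Aen. The Cdkn1a pairs (chr17:29090906-29090947, plus strand) lie upstream of the gene, and the window of a second annotated start of Cdkn1a held no decamer. A match is a description of letters, not a measured binding site, and the well-known p53-responsive elements in the first intron of Mdm2 are outside these windows.

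Totals ranged from 7187576 to 16829549 counts per library, and each of the 9 genes held at least 64 counts in every library, so that all 9 were tested in every comparison. Levels of a gene are TMM-scaled CPM, its counts divided by the library's size, and levels of different genes are compared per kilobase of exon (RPKM). A gene was called where edgeR's quasi-likelihood test gave a Benjamini-Hochberg adjusted p under 0.05 and the absolute log2 fold change exceeded 0.5. As sums, the naive and formative markers matched the state labels. The 6 naive-state genes summed to 2231 to 2389 CPM in mESC-2i, 1316 to 1429 in mESC-ser and 40.2 to 45.8 in EpiLC. The 4 formative-state genes summed to 71.8 to 82.5, 597 to 712 and 1631 to 1697 CPM in the same order. Single naive-state genes differed in mESC-ser against mESC-2i. There Nr0b1 was called higher (log2 fold change 0.98), Zfp42 was not called (0.21) and the other 4 were called lower. The fold change of a gene was related to its exonic length, with Spearman's rho across protein-coding genes of 0.28 for mESC-ser against mESC-2i, -0.30 for EpiLC against mESC-2i and -0.50 for EpiLC against mESC-ser. These correlations are across genes of the same libraries, which are not independent replicates. Fits with offsets for length and GC content reduced them to 0.039, -0.089 and -0.13, and values from those fits are given where they change a call or a direction.

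Trp53 (ENSMUSG00000059552, chr11:69580359-69591873 on GRCm38) had an abundant RNA that varied little across the states. It reached 325, 333 and 356 CPM in mESC-2i, 334, 338 and 379 in mESC-ser, with 340, 341 and 364 in EpiLC. The groups overlapped in all 3 comparisons, and the coefficient of variation over the 9 libraries was 5.07%. The log2 fold change was 0.025 (95% interval -0.19 to 0.24) for mESC-ser against mESC-2i, 0.041 (-0.16 to 0.24) for EpiLC against mESC-2i and 0.062 (-0.10 to 0.23) for EpiLC against mESC-ser. None was called (edgeR adjusted p = 0.834, 0.686 and 0.463), and only 2.10%, 2.38% and 3.12% of the genes tested had a smaller absolute change. With the length and GC offsets the differences were 0.26 (SE 0.07, edgeR adjusted p = 0.00748, under the fold threshold), 0.16 and -0.072. The sign of these differences is not fixed: all 3 were negative when libraries were scaled by total counts, at -0.020, -0.30 and -0.28, where the median of all genes also moved down by 0.34 in both EpiLC comparisons. Per kilobase, Trp53 stood at the 94.9th, 95.9th and 92.3rd percentile of the genes tested in mESC-2i, mESC-ser and EpiLC. The processed pseudogene Trp53-ps, whose reads could in part be assigned to either copy, held between 1 and 62 counts in a library against at least 2553 for Trp53.

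**Figure D1:**
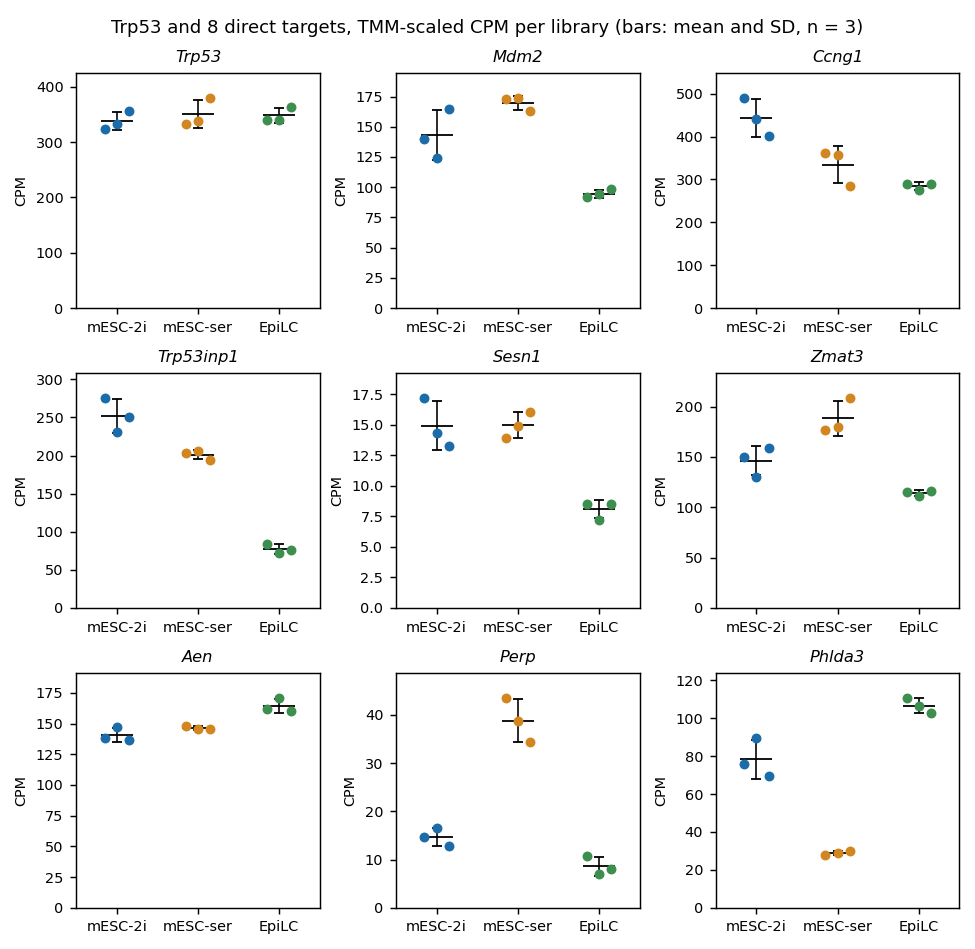
TMM-scaled CPM (y axis, from 0) of Trp53 and its 8 targets in each library of mESC-2i, mESC-ser and EpiLC, 1 panel per gene. Points are libraries, bars the mean and SD of 3. Trp53 stays between 325 and 379 CPM in all 9 libraries, whereas Perp is highest in mESC-ser and Phlda3 lowest there.

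Without the length and GC offsets, serum against 2i medium was the comparison in which the fewest of the 9 genes were called. Perp rose, Phlda3 fell and the other 7 genes were not called, against 56.2% of all 15728 genes tested (25.9% higher, 30.3% lower). The median log2 fold change of the 9 genes was 0.025, beside -0.043 for all genes tested. In EpiLC against mESC-2i, 5 genes fell and none rose, against 69.8% of 15378 genes called (32.0% higher, 37.8% lower), with a median of -0.60 beside -0.11. The 5 were Mdm2, Ccng1, Trp53inp1, Sesn1 and Perp. In EpiLC against mESC-ser, 5 fell and Phlda3 rose, against 73.3% of 15345 genes called (35.5% higher, 37.8% lower), with a median of -0.65 beside -0.068. Here Zmat3 was among the 5 in place of Ccng1. The groups did not overlap in CPM for 5, 8 and 7 of the 9 genes, where 70.6%, 81.8% and 85.7% of all genes tested did not overlap. The 3 comparisons share their samples pairwise and are not independent of each other. With the length and GC offsets, 3, 3 and 2 genes were lower and 1 gene was higher in each comparison, and the medians of the 9 were 0.063, -0.31 and -0.072. Those fits called 8273 of 15728, 10074 of 15378 and 10040 of 15345 genes tested. With the offsets, serum against 2i medium was thus no longer the comparison with the fewest of the 9 called.

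Mdm2 (chr10:117688875-117710758), the ligase that limits p53, was lowest in EpiLC. It reached 140, 124 and 165 CPM in mESC-2i, 173, 173 and 163 in mESC-ser, with 91.8, 94.0 and 98.3 in EpiLC. Every EpiLC library lay below every mESC library, while the mESC groups overlapped. The log2 fold change of EpiLC was -0.60 (SE 0.11, edgeR adjusted p = 5.78e-04) against mESC-2i and -0.77 (SE 0.08, edgeR adjusted p = 1.08e-07) against mESC-ser. The first falls short of the fold threshold without mESC-2i replicate 3 (-0.47), and both do so with the length and GC offsets (-0.31 and -0.39). Between mESC-ser and mESC-2i Mdm2 differed by 0.22 (95% interval -0.04 to 0.49, edgeR adjusted p = 0.125), which was not called.

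Ccng1 (chr11:40748552-40755311), whose product cyclin G1 recruits protein phosphatase 2A and takes part in Mdm2 regulation, was the most abundant of the 8 targets per kilobase, with a mean of 101 RPKM over the 9 libraries beside 85.4 for Trp53. It reached 489, 441 and 401 CPM in mESC-2i, 363, 357 and 284 in mESC-ser, with 289, 275 and 290 in EpiLC. All mESC-2i libraries exceeded all others, and mESC-ser replicate 3 lay within the range of EpiLC. Ccng1 fell in EpiLC against mESC-2i (log2 fold change -0.64, SE 0.10, edgeR adjusted p = 1.41e-04), which became -0.49 and no longer called with the length and GC offsets. Against mESC-2i, mESC-ser stood at -0.43 (edgeR adjusted p = 0.0135), short of the fold threshold, and at -0.72 and called with the offsets. EpiLC against mESC-ser was not called at -0.16 (95% interval -0.37 to 0.04), and it changed sign to 0.31 with the offsets.

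Of the 9 genes, Trp53inp1 had the largest fall in EpiLC relative to mESC-2i. Trp53inp1 (chr4:11156431-11174379) encodes a stress-induced nuclear protein that promotes p53-dependent apoptosis and autophagy. It reached 275, 231 and 250 CPM in mESC-2i, 204, 205 and 195 in mESC-ser, with 83.8, 71.4 and 76.5 in EpiLC. The 3 groups did not overlap, in the order mESC-2i, mESC-ser, EpiLC from high to low. EpiLC fell 3.27-fold against mESC-2i (log2 fold change -1.71, SE 0.10, edgeR adjusted p = 1.56e-07) and 2.49-fold against mESC-ser (-1.31, SE 0.09, edgeR adjusted p = 3.01e-10). In bulk RNA, fewer cells that express a gene and less RNA per cell cannot be told apart. With the length and GC offsets the fall against mESC-2i was -1.29 and still called, that against mESC-ser was -0.28 and not called, and mESC-ser against mESC-2i moved from -0.35 (not called) to -0.92 (called).

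Sesn1 (chr10:41809935-41908424), a sestrin that restrains mTORC1 signalling, was the least abundant of the 9 genes per kilobase, with a mean of 3.18 RPKM. It reached 17.2, 14.3 and 13.3 CPM in mESC-2i, 13.9, 14.9 and 16.1 in mESC-ser, with 8.53, 7.21 and 8.54 in EpiLC. All EpiLC libraries lay below all mESC libraries. Its log2 fold change in EpiLC was -0.88 (SE 0.16, edgeR adjusted p = 3.73e-04) against mESC-2i and -0.82 (SE 0.13, edgeR adjusted p = 2.15e-05) against mESC-ser, and both calls held with the length and GC offsets (-0.69 and -0.72). The mESC groups overlapped, with a difference of -0.013 (95% interval -0.32 to 0.29) whose sign changed with the scaling.

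Zmat3 (chr3:32334792-32366014), a zinc finger RNA-binding protein that acts in p53-dependent growth control, has the longest exonic sequence of the 9 genes (11435 bp), and its difference changed sign with the length and GC offsets in all 3 comparisons. It reached 150, 130 and 159 CPM in mESC-2i, 177, 180 and 208 in mESC-ser, with 116, 111 and 116 in EpiLC, without overlap between groups. The fall in EpiLC against mESC-ser (-0.65, SE 0.08, edgeR adjusted p = 1.19e-06) became 0.43 with the length and GC offsets. The differences that were not called, 0.34 for mESC-ser and -0.36 for EpiLC against mESC-2i, became -0.15 and 0.25.

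Aen (chr7:78895854-78911209), an apoptosis-enhancing nuclease, was like Trp53 in its small range, with 137 to 147 CPM in mESC-2i, 145 to 148 in mESC-ser and 160 to 171 in EpiLC. The EpiLC libraries were all above the others, but the differences of 0.22 (edgeR adjusted p = 0.0334) against mESC-2i and 0.24 (edgeR adjusted p = 0.00841) against mESC-ser stayed under the fold threshold. With total counts they were -0.12 and -0.10, and with the length and GC offsets 0.53, which was called, and 0.46.

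Perp had the widest range of the 9 genes, 6.22-fold between its lowest and highest library. Perp (chr10:18845020-18857073) encodes a membrane protein of desmosomes that is also an apoptosis effector of p53. It reached 14.6, 16.4 and 12.8 CPM in mESC-2i, 43.4, 38.6 and 34.4 in mESC-ser, with 10.8, 6.99 and 8.04 in EpiLC. The groups did not overlap, and mESC-ser stood highest. Perp rose 2.61-fold in mESC-ser against mESC-2i (log2 fold change 1.38, SE 0.14, edgeR adjusted p = 1.39e-05). EpiLC fell by 0.77 on the log2 scale against mESC-2i (SE 0.18, edgeR adjusted p = 2.53e-03) and 4.33-fold against mESC-ser (-2.11, SE 0.15, edgeR adjusted p = 8.46e-10). All 3 calls held with the length and GC offsets, at 1.56, -0.94 and -2.46. Among 6 trophectoderm markers, the epithelial keratin gene Krt8 changed by 1.58, -1.22 and -2.75 in the same 3 comparisons, in the directions of Perp. Krt18 changed by 3.05, 2.36 and -0.65, and so rose in EpiLC against mESC-2i where Perp fell. The 6 markers summed to 67.5 to 88.8 CPM in mESC-2i, 204 to 227 in mESC-ser and 81.3 to 84.1 in EpiLC, with Elf5 at 3 counts or fewer in every library. In mESC-ser against mESC-2i, 3 of the 5 markers tested rose and 2 fell (Cdx2 at -2.70 and Eomes at -0.90), and their part in the Perp difference was not tested.

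Phlda3 showed the opposite order to Perp. Phlda3 (chr1:135766119-135769136) encodes a pleckstrin homology protein that keeps the kinase Akt from the membrane, and has the shortest exonic sequence of the 9 genes (1559 bp). It reached 75.6, 89.6 and 69.7 CPM in mESC-2i, 28.0, 29.0 and 29.98 in mESC-ser, with 111, 106 and 103 in EpiLC. The groups did not overlap, with mESC-ser lowest and EpiLC highest. Phlda3 fell 2.75-fold in mESC-ser against mESC-2i (log2 fold change -1.46, SE 0.12, edgeR adjusted p = 2.44e-06) and rose 3.85-fold in EpiLC against mESC-ser (1.95, SE 0.08, edgeR adjusted p = 1.57e-12). With the length and GC offsets these were -1.22 and 1.07, both called. EpiLC against mESC-2i was 0.44 (edgeR adjusted p = 2.87e-03), under the fold threshold, and it changed sign to -0.19 with the offsets.

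**Figure D2:**
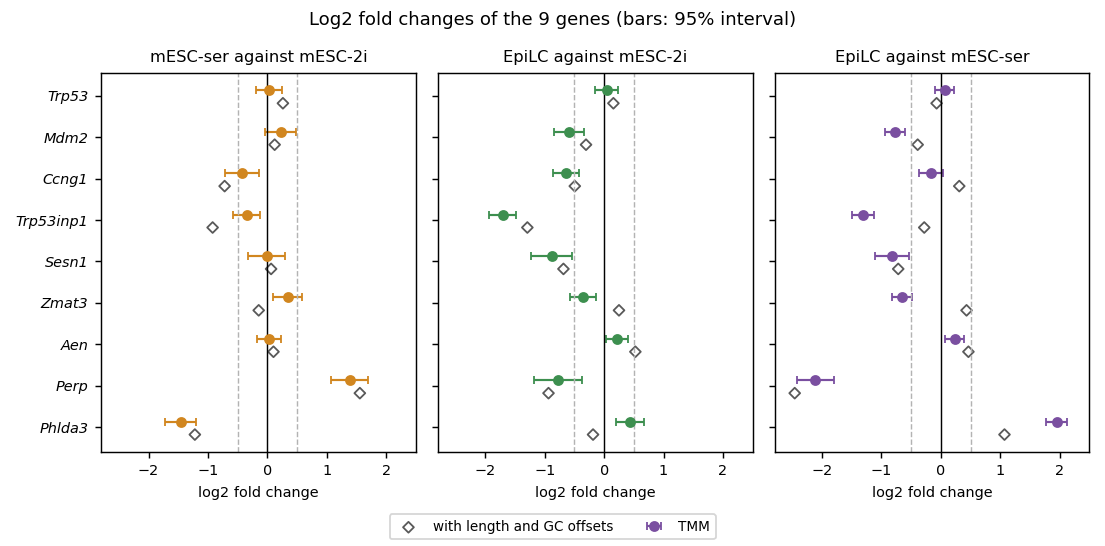
Log2 fold changes (x axis) of the 9 genes (y axis) in the 3 comparisons, 1 panel each. Coloured points are edgeR estimates with TMM scaling and bars their 95% interval. Open diamonds are estimates with length and GC offsets, and dashed lines mark the fold threshold of 0.5. Trp53 lies near 0 throughout, Perp and Phlda3 lie on opposite sides in mESC-ser against mESC-2i (1.38 and -1.46), and the diamond of Zmat3 lies across 0 from its point in every panel.

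The other p53 targets were called at shares near those of all genes. A list of 30 further targets had 29 tested members, without Fas. In mESC-ser against mESC-2i, 6 rose and 12 fell where 56.2% of all genes were called (25.9% higher, 30.3% lower). The median log2 fold change was -0.30 beside -0.043 for all genes. In EpiLC against mESC-2i, 5 rose and 13 fell where 69.8% were called (32.0% higher, 37.8% lower), with medians of -0.29 and -0.11. In both comparisons with mESC-2i, falls thus outnumbered rises by more than among all genes. In EpiLC against mESC-ser 10 rose and 11 fell where 73.3% were called (35.5% higher, 37.8% lower), with medians of -0.16 and -0.068. With the length and GC offsets, 6 and 12, 6 and 14, and 9 and 8 of the 29 rose and fell in these comparisons. Their medians were then -0.28, -0.36 and -0.23 beside -0.043, -0.0062 and 0.067. Among all genes, 8273 of 15728, 10074 of 15378 and 10040 of 15345 were called in those fits.

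Cdkn1a, which encodes the cyclin-dependent kinase inhibitor p21 and is the classic arrest target of p53, was high in mESC-2i only. It reached 338, 369 and 322 CPM in mESC-2i, 41.7, 42.5 and 42.9 in mESC-ser, with 49.2, 44.7 and 51.0 in EpiLC. The fall was 8.23-fold in mESC-ser (log2 fold change -3.04, SE 0.10, edgeR adjusted p = 1.5e-08) and 7.11-fold in EpiLC (-2.83, SE 0.10, edgeR adjusted p = 4.9e-09). No other gene of the list fell further in either comparison. EpiLC against mESC-ser was not called at 0.26, or -0.084 with total counts. Btg2, an antiproliferative gene, followed the same order of mESC-2i against the rest, with log2 fold changes of -1.62 in mESC-ser and -2.02 in EpiLC. The exons of Cdkn1a overlap an antisense gene, and whether the counting used strand is not stated.

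Pmaip1, Bax and Rps27l had the largest rises of the list in EpiLC against mESC-2i. Pmaip1, which encodes the BH3-only protein Noxa, stood at 4.54, 5.42 and 5.49 CPM in mESC-2i, 26.0, 26.1 and 26.6 in mESC-ser, with 40.2, 39.1 and 47.3 in EpiLC. It rose by 2.31 (SE 0.13, edgeR adjusted p = 2.79e-07) in mESC-ser and by 3.01 (SE 0.14, edgeR adjusted p = 2.41e-08) in EpiLC on the log2 scale against mESC-2i. Bax, whose product opens the outer mitochondrial membrane, stood at 171 to 217 CPM in mESC-2i, 150 to 168 in mESC-ser and 521 to 580 in EpiLC. It rose in EpiLC by 1.51 against mESC-2i and 1.86 against mESC-ser on the log2 scale, or 0.92 and 0.99 with the length and GC offsets, both still called. Its exons overlap those of another gene on the same strand. Rps27l, a ribosomal protein gene with a close paralogue to which reads could be misassigned, rose by 1.96 and 2.91 in the same comparisons, or 1.38 and 2.40 with the offsets.

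**Figure D3:**
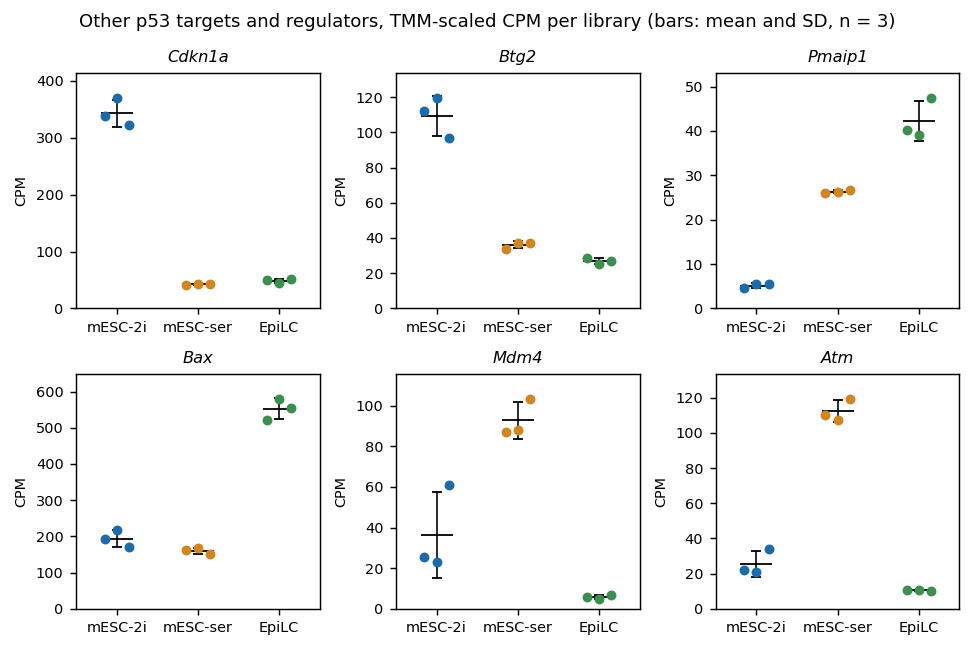
TMM-scaled CPM (y axis, from 0) of 4 other p53 targets (Cdkn1a, Btg2, Pmaip1 and Bax) and 2 regulators (Mdm4 and Atm) in each library. Points are libraries, bars the mean and SD of 3. Cdkn1a and Btg2 are high in mESC-2i, Pmaip1 and Bax are highest in EpiLC, and Mdm4 and Atm are highest in mESC-ser.

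Of the remaining targets named by size, Gadd45a, a stress sensor, and Plk3, a polo-like kinase, rose in mESC-ser against mESC-2i by 2.32 and 1.70 on the log2 scale. Gdf15, a stress-induced cytokine, was lower in mESC-ser than in mESC-2i by a log2 fold change of -2.94 and higher in EpiLC than in mESC-ser by 2.47. Against mESC-ser, EpiLC showed falls of Plk2 (-1.65), of Sfn, which encodes the arrest protein 14-3-3 sigma (-1.64), and of Rrm2b, a ribonucleotide reductase subunit (-1.55). Rrm2b also fell by 2.32 on the log2 scale in EpiLC against mESC-2i, and its call against mESC-ser was lost with the length and GC offsets (-0.33). With those offsets Gdf15 rose by 1.69 and Sfn fell by 2.496 on the log2 scale in EpiLC against mESC-ser. Gdf15 held only 16 to 40 counts in the mESC-ser libraries. The exons of Gadd45a, Plk3 and Rrm2b overlap a gene on the opposite strand.

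Genes upstream of p53 and its paralogues formed a list of 26, with 25 tested and Trp63 left out for low counts. In mESC-ser against mESC-2i 12 rose and 5 fell, beside 56.2% of all genes called (median 0.45 beside -0.043). In EpiLC against mESC-2i 8 rose and 9 fell, beside 69.8% called (median -0.0066 beside -0.11), and in EpiLC against mESC-ser 8 rose and 10 fell, beside 73.3% called (median -0.080 beside -0.068). The counts of both EpiLC comparisons lie near the background. In mESC-ser against mESC-2i, 12 of 25 rose beside 25.9% of all genes called higher, and 5 fell beside 30.3% called lower. A larger share of this list than of all genes thus rose there. With the length and GC offsets the counts were 9 and 6, 10 and 6, and 9 and 7, with medians of 0.33, 0.34 and 0.32 beside -0.043, -0.0062 and 0.067 for all genes. Among all genes, 8273 of 15728, 10074 of 15378 and 10040 of 15345 were called in those fits.

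Mdm4, the partner of Mdm2 in restraining p53, varied far more than Mdm2. It reached 25.4, 23.0 and 60.8 CPM in mESC-2i, 86.9, 88.0 and 103 in mESC-ser, with 5.60, 4.91 and 6.91 in EpiLC. The groups did not overlap, although mESC-2i replicate 3 stood far above the others of its group. Over all genes, that library also differed most from the others of its group. EpiLC was 15.3-fold lower than mESC-ser (log2 fold change -3.93, SE 0.13, edgeR adjusted p = 9.71e-14) and lower than mESC-2i by -2.67 (SE 0.38, edgeR adjusted p = 7.11e-05), or -2.05 without that library. With the length and GC offsets these were -2.503 and -1.95. The rise in mESC-ser against mESC-2i was 1.31 (SE 0.30, edgeR adjusted p = 0.00321), or 1.92 without that library. It was 0.59 and no longer called with the length and GC offsets (edgeR adjusted p = 0.0518).

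Atm, a kinase that activates p53 after DNA breaks, ran parallel to Mdm4, with 21.8, 20.9 and 34.1 CPM in mESC-2i, 110, 107 and 119 in mESC-ser, with 10.8, 10.6 and 10.3 in EpiLC. Its log2 fold changes were 2.10, -1.29 and -3.34 in mESC-ser against mESC-2i, EpiLC against mESC-2i and EpiLC against mESC-ser, or 1.45, -0.72 and -2.11 with the length and GC offsets. The acetyltransferases Ep300 and Crebbp, coactivators of p53, had values of 1.89 and 1.70 in mESC-ser against mESC-2i, and Crebbp fell by 4.73 on the log2 scale in EpiLC against mESC-ser, or by 3.67 with the offsets. Sirt1, a deacetylase of p53, fell in EpiLC against mESC-2i (-1.82), and Setd7, a lysine methyltransferase that acts on p53, rose in both other states (2.28 in mESC-ser and 1.28 in EpiLC).

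Cdkn2a, the locus of the Mdm2 inhibitor Arf and of p16, fell in mESC-ser against mESC-2i (-2.07), as did the methyltransferase gene Smyd2 (-1.52) and Rpl5 (-0.76). Rpl5 and Rpl11, ribosomal proteins that bind Mdm2 under ribosomal stress, rose in EpiLC against mESC-ser by 1.55 and 2.21 on the log2 scale. Rpl11 also rose against mESC-2i (1.53). These genes have many pseudogene copies, so their counts are uncertain. The p53 paralogue gene Trp73 rose in EpiLC by 1.18 against mESC-2i and 1.503 against mESC-ser, and its exons overlap an antisense gene. The exons of Setd7, Sirt1, Smyd2 and Rpl5 also overlap a gene on the opposite strand.

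**Figure D4:**
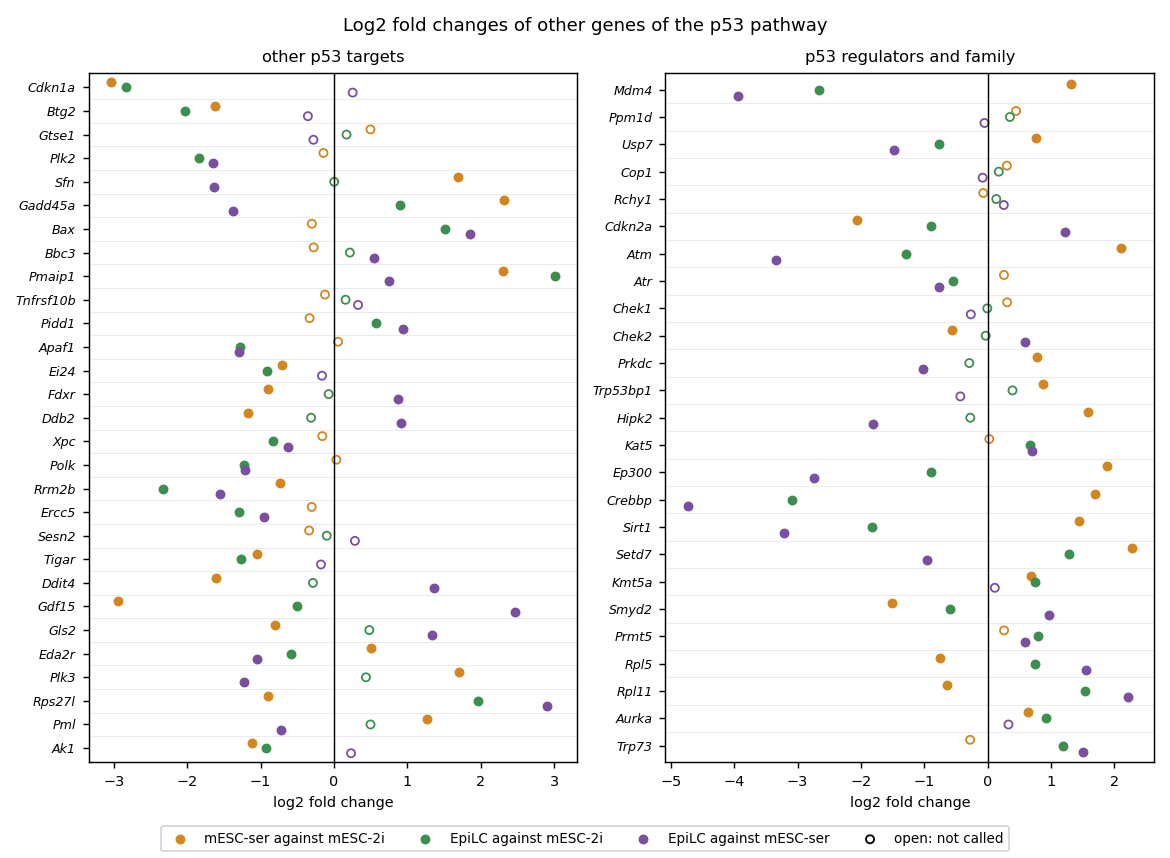
Log2 fold changes (x axis) of the 29 other p53 targets tested (left) and of the 25 regulators and family members tested (right) in the 3 comparisons, marked by colour. Filled points were called and open points were not. Cdkn1a has the most negative values among the targets in both comparisons with mESC-2i (-3.04 and -2.83). Most regulators at the top of the range in mESC-ser against mESC-2i, such as Atm and Ep300, lie below 0 in EpiLC against mESC-ser. Because both comparisons share the mESC-ser libraries, these values are not independent. Fold changes were also related to exonic length, with opposite sign in these comparisons.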

How the data were processed

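Sequencing of poly-A RNA gave 50 bp single-end reads, which the authors trimmed with Trim Galore (0.6.6), aligned to mm10 with HISAT2 (2.2.1) and counted per gene with featureCounts of Subread (2.0.1). The deposited values are raw counts per Ensembl gene. The annotation release, the strand setting and the handling of multiply aligned reads are not given in the sources used here, so overlapping genes and near-identical copies are uncertain. The serum columns were matched to samples by the initials of serum and LIF.

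Symbols, positions and exonic lengths came from GENCODE M21, whose assembly GRCm38 is that of mm10, and 36429 of 38293 identifiers matched. The rest held at most 0.827% of a library's counts. Depth ranged from 7187576 to 16829549 counts per library. Intervals rest on the spread between replicates, and the labels call the replicates biological without further detail. Replicates differed by more than counting noise, with a chi-square per degree of freedom over genes of 1.61 to 28.3 between libraries of a group. The largest values were of pairs with mESC-2i replicate 3 (12.6 and 28.3) and with mESC-ser replicate 3 (10.9 and 11.0).

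Each pair of states was fitted on its own 6 libraries in edgeR (4.0.16, R 4.3.3, limma 3.58.1) with filterByExpr, TMM and the quasi-likelihood F-test, without a replicate block, and p-values were adjusted by Benjamini-Hochberg over all genes tested. SEs were taken from the F statistic. The fold threshold of 0.5 follows the study's methods. The fit was tried on simulated counts with 200 changed genes per comparison. In mESC-ser against mESC-2i, EpiLC against mESC-2i and EpiLC against mESC-ser, 89%, 84% and 89.5% of these were called. Of all calls, 7.77%, 6.15% and 1.65% were false. The simulation changed far fewer genes than were called here and held no relation to gene length, so it does not cover these features. CPM and RPKM were scaled by TMM over all 9 libraries. A gene at 3 counts or fewer in every library of a group was treated as at the floor. This floor covers counting error only, as reads carried no molecular identifiers. Alternatives were RLE scaling, total counts, no filter, a minimum of 10 counts in every library, DESeq2 (1.42.0), 1 fit of all libraries, the replicate block, length and GC offsets (natural splines with 5 df), a fold threshold of 1, and leaving out each library.

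The replicate number paired mESC-ser with mESC-2i by the data alone: the deviations of same-numbered libraries from their group means correlated at 0.129, 0.182 and 0.345, although mESC-ser replicate 1 correlated slightly better with mESC-2i replicate 2 (0.146). In both EpiLC comparisons at least 1 such correlation was under 0.1. The main fits left the number out of all 3 comparisons alike, so the pairing of mESC-ser with mESC-2i is not modelled in them. The replicate block was fitted as an alternative and changed no call of a named gene.

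The 9 genes and the lists were chosen with earlier results of these data known. The genes named are the 9, Cdkn1a and Mdm4, and for each of the other lists and comparisons the 3 that rose most and the 3 that fell most among those called. For Trp53 and Mdm2, the 3 genes with the most similar profile are also named, among genes of at least 10 CPM on average. The 2 keratins, Cdx2, Eomes, Nr0b1 and Zfp42 were named after their values were seen. A planned search for p53 motifs within 2500 bases of each start needed genome sequence that was not used here, and RefSeq promoter windows of GRCm38.p6 took its place.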

Additional observations from a re-analysis of the deposited data

How the results depend on the processing

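The replicate block changed no call of a named gene. It gave 8953, 10759 and 11207 called genes for serum against 2i medium, EpiLC against mESC-2i, and EpiLC against mESC-ser, beside 8843, 10732 and 11246 without the block. Of 405 values of the 9 genes under alternatives, 358 kept their direction and their side of the threshold.

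With length and GC offsets, 3, 3 and 2 of the 9 genes were lower in the 3 comparisons in that order, and 1 was higher in each. All genes called in those fits numbered 8273, 10074 and 10040. The gene higher in EpiLC against mESC-2i was Aen (0.53), while Phlda3 was -0.19 there. RLE scaling and DESeq2 gave a different gene higher in EpiLC against mESC-2i, Phlda3 at 0.51. Leaving out single libraries gave 0 to 1, with Phlda3 called (0.60) without mESC-2i replicate 2. With a fold threshold of 1, 1 of the 9 was lower in EpiLC against mESC-2i, 2 were lower in EpiLC against mESC-ser, and serum against 2i medium had 4935 called genes.

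For the further targets, that threshold left 7 lower for serum against 2i medium, 3 higher and 8 lower in EpiLC against mESC-2i, and 5 higher in EpiLC against mESC-ser. RLE scaling and DESeq2 gave 8 higher in EpiLC against mESC-2i, and leaving out single libraries gave 4 to 8, with 8 without EpiLC replicate 1 or mESC-2i replicate 3. For regulators and family, the threshold of 1 left 7 higher and 2 lower for serum against 2i medium, 3 higher and 4 lower in EpiLC against mESC-2i, and 4 higher in EpiLC against mESC-ser. Total counts gave 4 and 5 higher in the EpiLC comparisons. Total counts also lowered the share of higher genes among all called from 45.9% to 33.7% for EpiLC against mESC-2i and from 48.4% to 37.4% in EpiLC against mESC-ser.

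Several small values changed sign. In mESC-ser against mESC-2i, Trp53 was -0.020 with total counts and -0.013 to 0.085 without single libraries, and Aen was -0.013 with total counts. Sesn1 there was 0.016 with RLE, 0.019 without a filter, 0.043 with at least 10 counts, 0.015 with DESeq2 and in 1 fit of all libraries, 0.063 with the offsets, and -0.082 to 0.090 without single libraries. Zmat3 was -0.15 with the offsets. In EpiLC against mESC-2i, Trp53 was -0.30 and Aen -0.12 with total counts, Trp53 was -0.0185 with at least 10 counts, and Zmat3 was 0.25 and Phlda3 -0.19 with the offsets. In EpiLC against mESC-ser, Trp53, Aen and Cdkn1a were -0.28, -0.10 and -0.084 with total counts. Trp53 was also -0.023 without a filter, -0.0105 with at least 10 counts, -0.0086 in 1 fit of all libraries and -0.072 with the offsets, which gave 0.31 for Ccng1 and 0.43 for Zmat3. Beyond what the length and GC offsets show by their construction, the cause was not tested.

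With 3 libraries per state of 1 cell line, differences near the fold threshold could not be separated from it.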

Other observations

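Over the 9 libraries, the genes whose log2 CPM followed Mdm2 most closely among 9144 genes were Topbp1 (Pearson's r = 0.994), Zfp280d (0.992) and Marf1 (0.992). The mean level of Topbp1, which encodes a scaffold of the DNA damage checkpoint, was 187, 256 and 97.5 CPM in mESC-2i, mESC-ser and EpiLC. For Trp53, whose level hardly varied, the closest were Acap3 (0.859), Mapk7 (0.845) and Map3k4 (0.827). The points share the 3 culture states and the libraries, and these values are descriptions over 9 libraries without a test.

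The processed pseudogene Trp53-ps held 24, 42 and 34 counts in mESC-2i, 51, 45 and 62 in mESC-ser, with 7, 1 and 3 in EpiLC.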
